A study of Mus musculus with 26 samples.

Results

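Complement messages were followed in 26 mouse liver RNA sequencing libraries, for 9 genes whose proteins the liver sends into the blood: Mbl2, C4b, C2, C3, Cfb, Cfi, C6, C8a and C9. They were picked by name, through their Ensembl identifiers, as 9 of the 55642 gene rows of the estimated count table, and all 9 passed the filter on low counts that left 17104 genes to test. The groups were homozygous Mtarc1 knockout mice on CDAHFD (n = 8), heterozygous Mtarc1 knockout mice on CDAHFD (n = 7), wildtype mice on CDAHFD (n = 6) and wildtype mice on control chow (n = 5). CDAHFD is a choline-deficient, amino acid-defined, high-fat diet used to bring on steatohepatitis, and it was fed for 2 weeks. Mtarc1 encodes a molybdenum enzyme of the outer mitochondrial membrane. Strain, age, sex and the part of Mtarc1 that was removed are not given in the sources used here, and knockout livers on chow were not analysed here. Which animal each sample came from is not stated, so a p-value here reflects only how much these samples vary.

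Complement is a cascade of blood proteins that tags microbes and damaged cells for removal and can punch holes in membranes. It starts from antibody through C1q (the classical route), from sugars through mannose-binding lectins (the lectin route), or spontaneously on C3 with factor B (the alternative route). All routes cut C3, and the late components then assemble the membrane attack complex. Hepatocytes make most of the circulating C3, C4, factor B and late components and raise many of them in an acute phase response, whereas C1q is mainly a macrophage product.

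Library totals lay between 19.73 M and 29.91 M counts, and the 9 genes together took 0.64% to 1.36% of a library's counts. Mtarc1 itself averaged 48.7 ± 10.4 CPM in homozygous and 161 ± 33.7 CPM in heterozygous livers, against 235 ± 40.7 CPM in wildtype livers on the diet and 305 ± 40.2 CPM in wildtype livers on chow (SD). Homozygous livers were below wildtype on the diet in a two-sided exact permutation test (p = 0.000333, the smallest it can give), and so were heterozygous livers (exact p = 0.00583). Values are CPM, counts scaled to a common library total with TMM-scaled library sizes, and called genes are those with an adjusted p under 0.05. Hepatocyte markers, such as Alb, were abundant in every library: 9 of 10 listed matched a tested gene and summed to 78730 to 114900 CPM in homozygous, 70650 to 101600 CPM in heterozygous, 71940 to 107500 CPM in wildtype CDAHFD and 110700 to 135700 CPM in wildtype chow livers.

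The diet lowered 1 of the 9 genes in wildtype liver, Mbl2, and called no other. C3, the most abundant, and the factors that act beside it (C4b, C2, Cfb and Cfi) did not pass the test. The count of 1 of 9 stands against 27.1% of all 17104 genes called in either direction, 14.8% higher and 12.2% lower. The median log2 fold change of the 9 genes was 0.00, against -0.01 over all genes tested. Of the genes that act with them, 3 of 12 measured at the classical and lectin starting step were called higher on the same diet and 1 lower. Among 15 membrane regulators and receptors, 7 were called higher and 1 lower. Of 5 other components 0 were called higher and 2 lower, and of 11 soluble regulators 1 higher and 4 lower. The difference between lists was not tested. No gene of the 9 was called between genotypes on the diet.

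**Figure D1:**
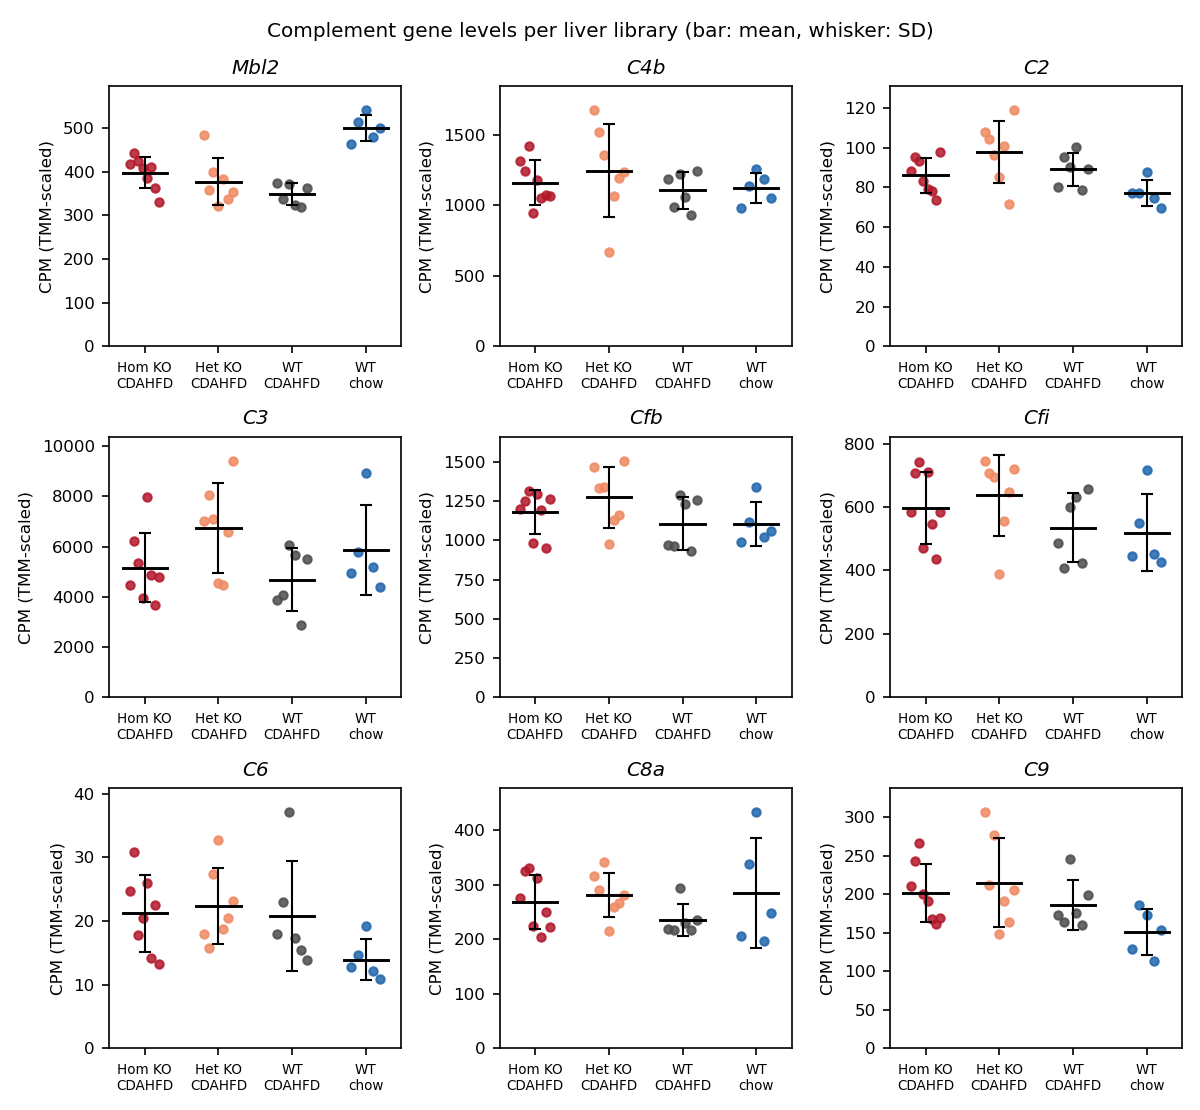
TMM-scaled CPM of the 9 complement genes in each liver library (points), with the group mean (bar) and SD (whisker), for homozygous knockout, heterozygous knockout and wildtype livers on CDAHFD and wildtype livers on chow. Mbl2 in wildtype livers on the diet (319.7 to 374.3 CPM) lies wholly below wildtype livers on chow (463.9 to 542.3 CPM), while the other genes overlap between these groups.

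Levels can be set against each other once divided by length, here CPM per kilobase of the longest coding transcript of GENCODE M21. C3 stood first in every group, with 1006 ± 270.1 in homozygous, 1312 ± 346.9 in heterozygous, 911 ± 243.2 in wildtype CDAHFD and 1139 ± 349.5 CPM per kilobase in wildtype chow livers (SD). C6 stood last in every group, at 7.37 CPM per kilobase in homozygous, 7.76 in heterozygous, 7.22 in wildtype CDAHFD and 4.84 in wildtype chow livers. Between them, Cfi and C4b took places 4 and 5, and C2 place 8, in all 4 groups. The places of Mbl2 and Cfb differed by diet: Mbl2 per kilobase exceeded Cfb per kilobase in 1 of 8 homozygous, 0 of 7 heterozygous and 0 of 6 wildtype CDAHFD livers, and in 5 of 5 wildtype chow livers. In wildtype livers Cfb and Mbl2 averaged 402.5 and 320.2 CPM per kilobase on the diet, against 401.8 and 459.5 on chow, so the mean of Mbl2 differed and that of Cfb hardly did. C9 exceeded C8a per kilobase in all 21 livers on the diet and in 3 of 5 livers on chow, where the neighbours overlapped. Cfi and Mbl2 also overlapped on the diet, with Mbl2 the higher in 4 of 7 heterozygous livers. Such places depend on the transcript length used.

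Mbl2 encodes mannose-binding lectin C, a starter of the lectin route. Its lowest, median and highest levels were 330.5, 409.3 and 443.3 CPM in homozygous, 322, 358.2 and 483.1 CPM in heterozygous and 319.7, 350.5 and 374.3 CPM in wildtype livers on the diet. The 5 wildtype chow livers had 463.9, 480.4, 500.1, 515.1 and 542.3 CPM. Wildtype and homozygous livers on the diet all lay below every chow liver, and 1 heterozygous liver, at 483.1 CPM, reached into the chow range. Of all 17104 genes, 5.93% lay wholly lower in wildtype livers on the diet than on chow, and 3.16% wholly lower in homozygous livers on the diet than in wildtype livers on chow. The log2 fold change was -0.52 ± 0.10 (SE) for wildtype CDAHFD against chow (edgeR's quasi-likelihood test with Benjamini-Hochberg adjustment, adjusted p = 0.000229). Each of 37 alternative settings kept that call, with adjusted p between 2.21e-07 and 0.0078. On raw library totals the fold change was -0.29, a setting that put the median of all genes at 0.22; relative to that median it was -0.51. In bulk liver, fewer cells of a type and less RNA per cell cannot be told apart. Of 9 measured hepatocyte markers, 6 were also called lower on the diet and none higher, against 12.2% and 14.8% of all genes. Their median log2 fold change was -0.45. On raw totals, where 703 of all 17104 genes were called lower, 3 of the 9 markers were, with a median of -0.23. Their part in the fall of Mbl2 was not tested.

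The paralog Mbl1, which encodes mannose-binding lectin A, was also lower on the diet in wildtype livers. Mbl1 averaged 165.9 ± 14.3 CPM in wildtype CDAHFD livers, against 202.5 ± 14.2 CPM in wildtype chow livers (SD), a log2 fold change of -0.29 ± 0.10 (SE, edgeR, adjusted p = 0.033). Mbl1 lost its call without wildtype CDAHFD replicate 2, 3 or 4 or chow replicate 3 or 5 (-0.32 to -0.25 over all libraries left out in turn) and on raw totals (-0.05, adjusted p = 0.672). Reads that fit both paralogs could be divided between them by the estimation.

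In the knockout groups Mbl2 fell too, relative to wildtype chow livers, which serve as controls in both comparisons. The log2 fold change was -0.33 ± 0.09 in homozygous livers on the diet against wildtype chow livers (edgeR adjusted p = 0.00963). It was -0.41 ± 0.09 in heterozygous livers on the diet against the same chow livers (edgeR adjusted p = 0.00146). Raw library totals ended the homozygous call (-0.13, adjusted p = 0.202, the highest over 37 alternatives, which began at 0.00126), with the median of all genes at 0.20. Library numbers in the deposited table fall into a series under 10000 and one above it, and no source says whether these are batches. Within the 17 libraries above 10000, the differences in mean log2 CPM from chow were -0.40, -0.55 and -0.60 in homozygous, heterozygous and wildtype livers on the diet. The other 9 libraries include a single chow liver, and there the differences were -0.11, -0.18 and -0.36.

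Sequence upstream of the start site is shown for the genes with a call that RefSeq's promoter table (GRCm38.p6) covers, Mbl2, C6 and C9, and for C3, the most abundant. The table held 5 of the 9 genes, C8a among them. Each line gives the 250 bases before the annotated start, 5′ to 3′ on the gene's strand. Capitals mark matches, on either strand, to short motifs written after known sites: TTCNNNGAA (STAT-like), TTNNGNAAT (C/EBP-like), GGGNNNTCC and GGGNNNTTC (NF-kB-like) and TGACCT (one arm of a nuclear receptor site).
Mbl2: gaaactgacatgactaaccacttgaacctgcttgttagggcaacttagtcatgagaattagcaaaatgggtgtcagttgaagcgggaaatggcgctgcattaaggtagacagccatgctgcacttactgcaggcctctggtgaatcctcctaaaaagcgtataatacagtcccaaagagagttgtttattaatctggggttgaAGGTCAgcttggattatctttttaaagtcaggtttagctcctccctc
C6: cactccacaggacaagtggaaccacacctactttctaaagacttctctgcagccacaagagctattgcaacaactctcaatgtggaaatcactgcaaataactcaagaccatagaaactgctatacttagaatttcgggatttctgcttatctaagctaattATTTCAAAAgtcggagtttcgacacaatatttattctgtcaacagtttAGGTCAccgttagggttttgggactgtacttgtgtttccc
C9: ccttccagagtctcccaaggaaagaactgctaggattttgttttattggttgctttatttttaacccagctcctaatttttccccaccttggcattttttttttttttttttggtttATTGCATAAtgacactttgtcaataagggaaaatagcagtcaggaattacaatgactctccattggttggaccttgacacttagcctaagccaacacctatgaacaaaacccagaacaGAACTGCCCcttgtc
C3: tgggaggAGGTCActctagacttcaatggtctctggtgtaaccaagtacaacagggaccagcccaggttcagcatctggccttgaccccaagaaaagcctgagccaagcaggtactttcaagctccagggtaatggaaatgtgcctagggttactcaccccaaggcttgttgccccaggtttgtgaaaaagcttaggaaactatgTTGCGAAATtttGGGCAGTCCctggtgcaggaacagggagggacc

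These windows lie at chr19:30232678-30232927 (Mbl2, plus strand), chr15:4726960-4727209 (C6, plus strand), chr15:6445096-6445345 (C9, plus strand) and chr17:57228137-57228386 (C3, minus strand). Mbl2 held only the TGACCT motif, read as AGGTCA 47 bases before the start. C3 held a C/EBP-like match from -45 to -37 and an NF-kB-like match from -33 to -25, beside one TGACCT match at -243. C6 held a C/EBP-like match at -88 and a TGACCT match at -40, and C9 a C/EBP-like match at -133 and an NF-kB-like match at -15. No 2 of these matches overlap. Of 32851 promoter windows of the same length, 7.02% held TTCNNNGAA, 10.2% TTNNGNAAT, 15.2% GGGNNNTCC, 11.8% GGGNNNTTC and 14% TGACCT. A match is a description of the letters and not evidence of binding.

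C4b and C2 encode the proteins that C1 and the lectin-bound proteases cut to build the classical and lectin C3 convertase. C4b averaged 1160 ± 157 CPM in homozygous, 1245 ± 327.9 CPM in heterozygous and 1105 ± 130.5 CPM in wildtype livers on the diet, against 1121 ± 109.2 CPM in wildtype chow livers (SD). Its diet log2 fold change was -0.02 (95% CI -0.34 to 0.30), and the sign turned on raw totals (0.21). The near-identical neighbour C4a averaged 13.4 ± 3.13 CPM in wildtype CDAHFD and 12.5 ± 1.82 CPM in wildtype chow livers, and reads shared by the pair may be split between them. One heterozygous liver stood low for C4b, at 664.7 CPM, below every other library.

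C2 had a lowest, median and highest level of 73.6, 85.7 and 97.7 CPM in homozygous, 71.5, 101.1 and 119.2 CPM in heterozygous and 78.9, 89.8 and 100.6 CPM in wildtype livers on the diet. The 5 wildtype chow livers had 69.6, 74.9, 77.2, 77.3 and 87.8 CPM. All 6 wildtype livers on the diet were above the chow mean and 4 were above every chow liver, yet the diet log2 fold change of 0.20 ± 0.11 (SE) missed the threshold (edgeR adjusted p = 0.162). In heterozygous livers on the diet C2 rose against wildtype chow livers, with a log2 fold change of 0.34 ± 0.10 (SE, edgeR adjusted p = 0.0121). C2 and Cfb are neighbours overlapped by the readthrough gene Gm20547, so their reads could be shared. In a setting added after seeing the data, the Gm20547 row was summed into C2 and the C4a row into C4b. No count of calls among the 9 genes changed. The Cfb row was left as it was.

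C3 encodes the protein on which all routes converge, and its message varied widely inside each group. It had 3666, 4827 and 7977 CPM as lowest, median and highest in homozygous livers on the diet. The same values were 4483, 7034 and 9420 CPM in heterozygous and 2892, 4790 and 6073 CPM in wildtype livers on the diet. The chow livers had 4391, 4964, 5181, 5784 and 8936 CPM. All 4 groups overlapped, with coefficients of variation from 26.4% to 30.7%. The diet log2 fold change was -0.32 (95% CI -0.78 to 0.14; edgeR adjusted p = 0.307). It was -0.12 without the chow liver at 8936 CPM, which was the highest chow liver for 8 of the 9 genes.

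Cfb encodes factor B, the protease of the alternative route, and Cfi encodes factor I, which inactivates C3b and C4b. Cfb averaged 1182 ± 138.6 CPM in homozygous, 1274 ± 193.1 CPM in heterozygous and 1107 ± 168.2 CPM in wildtype livers on the diet, against 1105 ± 138.6 CPM in wildtype chow livers (SD). Cfi averaged 597.7 ± 114.1 CPM in homozygous, 636.8 ± 126.7 CPM in heterozygous and 534.1 ± 108.7 CPM in wildtype livers on the diet, against 518.6 ± 121.3 CPM in wildtype chow livers (SD). Diet estimates were near 0, at 0.00 (95% CI -0.26 to 0.26) for Cfb and 0.04 (95% CI -0.32 to 0.40) for Cfi. Changes within those intervals could not be told from 0 with these samples.

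C6, C8a and C9 encode parts of the membrane attack complex, in which C9 forms the ring of the pore. C6 had 13.3, 21.5 and 30.8 CPM as lowest, median and highest in homozygous, 15.7, 20.4 and 32.8 CPM in heterozygous and 13.9, 17.6 and 37.2 CPM in wildtype livers on the diet. The chow livers had 10.8, 12.2, 12.8, 14.6 and 19.2 CPM. Every diet group overlapped chow, although 7 of 7 heterozygous, 7 of 8 homozygous and 5 of 6 wildtype livers on the diet were above the chow mean. The diet log2 fold change was 0.58 ± 0.24 (SE, edgeR adjusted p = 0.0815). It was 0.13 in the libraries numbered above 10000 alone, and without 1 of 26 libraries it ran from 0.33 to 0.72. It was called without chow replicate 3 (0.72) or wildtype CDAHFD replicate 6 (0.67), and over 37 alternatives the edgeR, DESeq2 or voom adjusted p ran from 0.0144 to 0.759.

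C9 had 161.4, 195.5 and 266.3 CPM as lowest, median and highest in homozygous, 148.4, 204.9 and 306.9 CPM in heterozygous and 160.5, 173.9 and 245.1 CPM in wildtype livers on the diet. The chow livers had 112.8, 128.5, 153.5, 172.5 and 185.6 CPM. All 6 wildtype and all 8 homozygous livers on the diet were above the chow mean, with overlap in the upper chow range. The diet log2 fold change of 0.30 ± 0.17 (SE) missed the threshold (edgeR adjusted p = 0.206). C8a, at 267.9 ± 50.1 CPM in homozygous, 281 ± 40.7 CPM in heterozygous and 235.3 ± 29.5 CPM in wildtype CDAHFD livers, against 284.4 ± 100.2 CPM in wildtype chow livers (SD), had a diet estimate of -0.27 (95% CI -0.62 to 0.08). Without the chow liver at 433.6 CPM that estimate was -0.07.

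Against wildtype chow livers, the 3 members called higher in heterozygous livers on the diet were C2, C6 and C9, beside Mbl2 called lower. That is 4 of 9 genes, where 37.2% of all genes were called, 19.3% higher and 17.9% lower. C6 rose by 0.68 ± 0.24 (edgeR adjusted p = 0.0269) and C9 by 0.51 ± 0.17 (edgeR adjusted p = 0.0199) on the log2 scale (SE). The same chow livers gave 0.61 ± 0.23 for C6 (edgeR adjusted p = 0.0595) and 0.42 ± 0.16 for C9 (edgeR adjusted p = 0.0666) in homozygous livers on the diet, where Mbl2 was the 1 of 9 genes called, against 23.1% of all genes called and 10.8% called lower. DESeq2 called both, at adjusted p = 0.0361 and 0.0475, where it called 25.5% of all genes. Over 37 alternatives, the homozygous adjusted p ran from 0.0139 to 0.159 for C6 and from 0.00188 to 0.194 for C9. Heterozygous calls of C2 and C9 were lost in the libraries numbered above 10000 alone, at log2 fold changes of 0.29 and 0.19. The heterozygous C6 call was also lost without heterozygous replicate 3 or 4 or chow replicate 1, 4 or 5, at 0.57 to 0.65, and with no filter on low counts (0.72). The C9 call was lost without heterozygous replicate 1 or chow replicate 1 or 4, at 0.40 to 0.46. The difference between homozygous and heterozygous livers was itself not called for either gene, at -0.07 (95% CI -0.49 to 0.35) for C6 and -0.09 (95% CI -0.40 to 0.21) for C9.

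**Figure D2:**
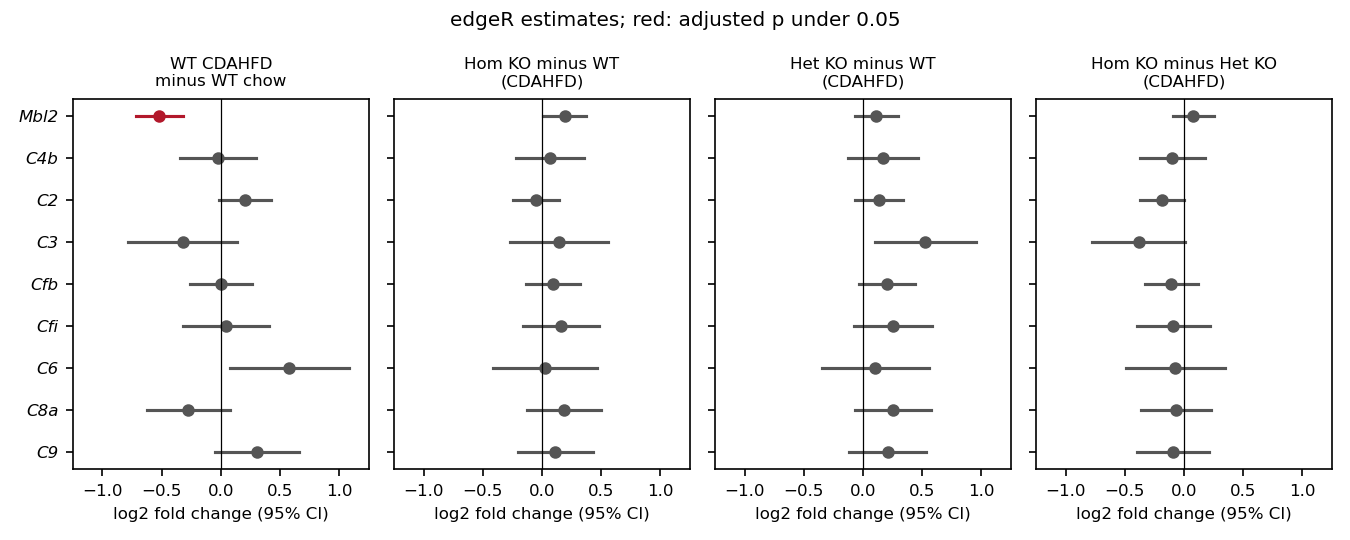
edgeR log2 fold changes (points) with 95% confidence intervals (lines) of the 9 genes, one panel for wildtype CDAHFD minus wildtype chow and 3 panels for genotype differences on CDAHFD; red marks an adjusted p under 0.05. Mbl2 in the diet panel, at -0.52, is the single red point, and the C3 interval in the heterozygous panel runs from 0.10 to 0.95.

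Between genotypes on the diet, no gene of the 9 was called. edgeR's quasi-likelihood test, DESeq2 and voom each called 0 of 9 in homozygous against wildtype, in heterozygous against wildtype and in homozygous against heterozygous livers. Of all 17104 genes, 0.00585% were called in homozygous against wildtype livers, 0% in heterozygous against wildtype livers and 0.00585% in homozygous against heterozygous livers. DESeq2 called 0.465%, 0.0117% and 0.106% of the genes it adjusted, and voom 0.00585%, 0% and 0.00585%. At an unadjusted p under 0.05, edgeR had 1 of 9 genes in each of these comparisons, against 9.97%, 8.44% and 7.13% of all genes. DESeq2 had 1, 1 and 2, and voom 1, 1 and 0. For these tools the share of all genes at that threshold was not counted, here or for the trend. The trend per Mtarc1 copy lost, over the 21 livers on the diet, also called 0 of 9 in edgeR, DESeq2 and voom (0.00598% of 16730 genes in edgeR and in voom, 0.46% of genes in DESeq2), with 1 of 9 at an unadjusted p under 0.05 by each, against 9.72% of all genes in edgeR.

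Among the 9, Mbl2 was the gene of lowest p between homozygous and wildtype livers on the diet. Its log2 fold change was 0.19 (95% CI 0.01 to 0.37; edgeR adjusted p = 0.45). Of 8 homozygous livers, 7 were above the wildtype CDAHFD mean and 6 above every wildtype CDAHFD liver. The trend was 0.10 ± 0.05 per copy lost (SE, edgeR adjusted p = 0.479).

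C3 averaged highest in heterozygous livers, with a log2 fold change of 0.53 (95% CI 0.10 to 0.95) against wildtype livers on the diet (edgeR adjusted p = 0.569). Of 7 heterozygous livers, 5 were above every wildtype CDAHFD liver, whereas 2, at 4483 and 4536 CPM, were below the wildtype CDAHFD mean of 4679 CPM. Homozygous livers differed from heterozygous livers by -0.38 (95% CI -0.78 to 0.01; edgeR adjusted p = 0.702). The heterozygous difference in mean log2 CPM was 0.69 within the libraries numbered under 10000 and 0.41 within those above.

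C2 had the lowest p between homozygous and heterozygous livers, at -0.19 (95% CI -0.37 to 0.00; edgeR adjusted p = 0.7), with all 8 homozygous livers below the heterozygous mean. Estimates for all 9 genes were above 0 in heterozygous against wildtype livers, with a median of 0.20 against -0.01 over all genes. The median was 0.11 in homozygous against wildtype livers, against 0.01 over all genes, with 8 of 9 above 0. Both comparisons share the wildtype CDAHFD livers. The 9 genes also varied together from liver to liver, with a median correlation of 0.54 over 36 pairs after group means were removed. Their signs are therefore not 9 separate observations. In the libraries numbered above 10000 alone, the heterozygous median was 0.07 and C4b (-0.05) and C9 (0.00) were no longer above 0.

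**Figure D3:**
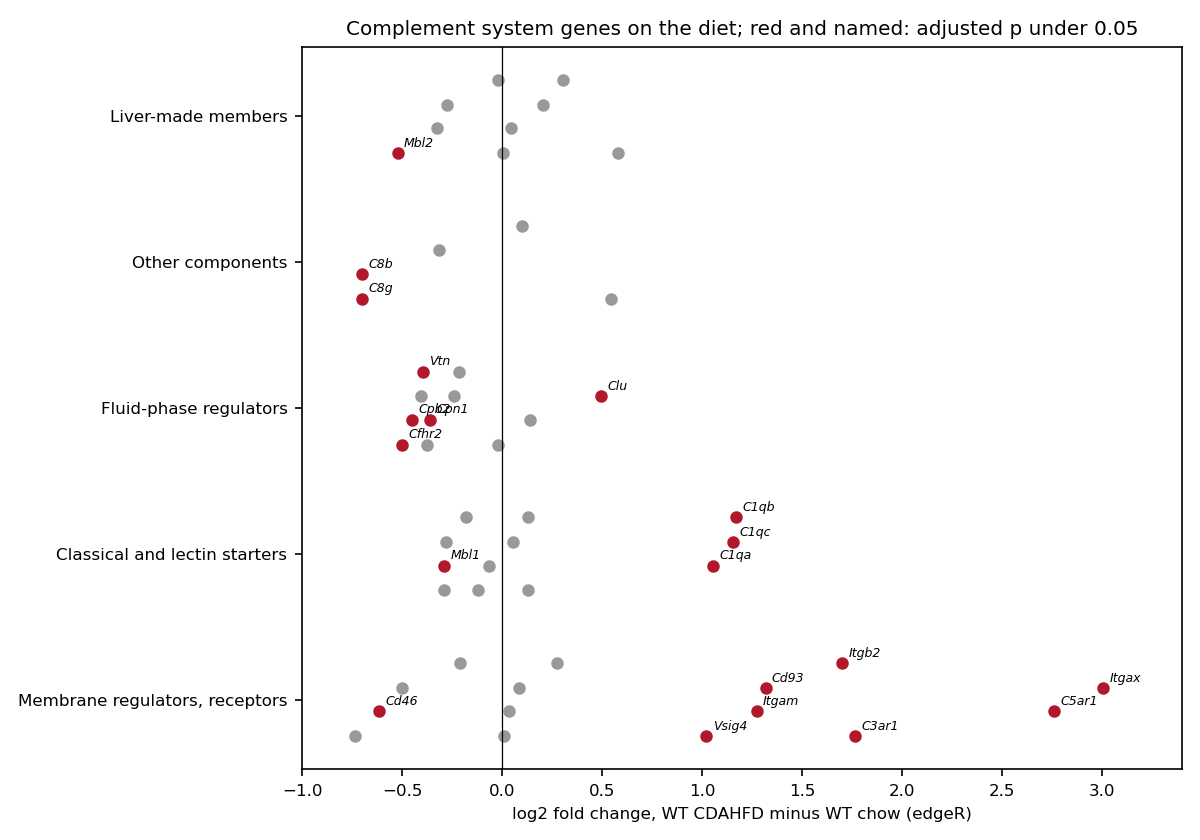
edgeR log2 fold changes of wildtype CDAHFD minus wildtype chow livers for measured genes of the complement system, 1 point a gene, grouped by role; red and named points have an adjusted p under 0.05. The liver-made genes lie between -0.52 and 0.58, while Itgax, at 3.01, and C5ar1, at 2.76, lie farthest to the right.

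Genes that act with the 9 gave a wider spread on the diet in wildtype livers. In the starting step of the classical and lectin routes, 12 of 15 listed genes were measured. Of these, 3 were called higher and 1, Mbl1, lower, against 14.8% and 12.2% of all genes. The higher ones were the 3 chains of C1q, with log2 fold changes of 1.05 ± 0.14 for C1qa, 1.17 ± 0.14 for C1qb and 1.16 ± 0.15 for C1qc (SE; edgeR adjusted p = 6.93e-06, 2.19e-06 and 4.25e-06). C1qa had 89.8 to 125.4 CPM in wildtype CDAHFD livers, against 37.5 to 71.5 CPM in wildtype chow livers, with no overlap. The C1r and C1s protease genes and the lectin proteases Masp1 and Masp2 did not pass the test. C1q chains are macrophage products. Of 14 macrophage markers, 12 were called higher in the same livers, where 14.8% of all genes were. The markers summed to 515.2 to 989.3 CPM on the diet, against 226.2 to 438.2 CPM on chow. Their part in the C1q rise was not tested.

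Of the remaining components, 5 of 7 listed were measured and 2 were called lower, against 12.2% of all genes. Both are partners of C8a in the C8 protein. C8g fell to 209.3 ± 17.1 CPM in wildtype CDAHFD livers, against 340.1 ± 23.6 CPM in wildtype chow livers (SD), a log2 fold change of -0.70 ± 0.10 (SE, edgeR adjusted p = 1.88e-05). C8b had 70.2 to 112 CPM in wildtype CDAHFD and 96.3 to 232.8 CPM in wildtype chow livers, a log2 fold change of -0.70 ± 0.23 (SE, edgeR adjusted p = 0.0258), and its ranges overlapped. C8b lost its call without wildtype CDAHFD replicate 1 or 2 or chow replicate 2 or 3 (-0.82 to -0.48 over all libraries left out in turn). Hc, the gene of C5, had a log2 fold change of -0.31 (adjusted p = 0.112). On raw library totals 1 of the 5 measured components was called higher and 1 lower, where 5369 of all 17104 genes were called higher and 703 lower. C7 and Cfd did not pass the filter on low counts.

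Soluble regulators moved in both directions, with 1 called higher and 4 lower of 11 measured, against 14.8% and 12.2% of all genes. Clu, which encodes clusterin, an inhibitor of membrane attack, rose by 0.50 ± 0.16 (edgeR adjusted p = 0.0197). Vtn (vitronectin), Cpn1 and Cpb2 (carboxypeptidases that act on anaphylatoxins) and Cfhr2 fell, with log2 fold changes of -0.40, -0.36, -0.45 and -0.50. Clu lost its call without wildtype CDAHFD replicate 3 or chow replicate 4 or 5 (0.40 to 0.64 over all libraries left out), and Cpb2 without wildtype CDAHFD replicate 2 or chow replicate 2 or 3 (-0.53 to -0.35). Serping1 (C1 inhibitor) was not called, at -0.24. On raw library totals none of these 4 falls was called, and 2 regulators were called higher. Of all 17104 genes, raw totals called 5369 higher and 703 lower.

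In the list of membrane regulators and receptors for complement fragments, 7 of 15 measured genes were called higher and 1 lower, against 14.8% and 12.2% of all genes. C5ar1, the C5a receptor, had 2.57 to 8.77 CPM in wildtype CDAHFD livers, against 0.39 to 1.32 CPM in wildtype chow livers, a log2 fold change of 2.76 ± 0.37 (SE, edgeR adjusted p = 5.09e-06). Itgax and Itgb2, which encode chains of complement receptor 4, rose by 3.01 ± 0.42 and 1.70 ± 0.26, and Cd93 rose by 1.32 ± 0.18. Cd46, a membrane cofactor for factor I, fell by 0.61 ± 0.21 (edgeR adjusted p = 0.0272). The Cd46 call was lost without wildtype CDAHFD replicate 3 or 6 or chow replicate 4 or 5 (-0.73 to -0.50 over all libraries left out). It was also lost on raw library totals, where 9 of the 15 genes were called higher and 0 lower. Raw totals called 5369 of all 17104 genes higher and 703 lower. Itgax also stands among the macrophage markers counted above.

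Of 17 acute phase genes, 8 were called higher, 2 lower and 7 not called on the diet in wildtype livers, against 14.8% of all genes called higher. Lcn2 rose by 4.09 ± 0.51, Saa2 by 3.63 ± 0.46, Saa1 by 3.42 ± 0.43 and Saa3 by 2.67 ± 0.34 (SE, log2; edgeR adjusted p from 3.67e-06 to 4.25e-06). Among 18 genes of the signalling and transcription factors known to act on complement promoters, 4 were called higher and 1 lower, where 27.1% of all genes were called. On raw totals 8 were called higher and 0 lower, and with RLE or upper-quartile scaling 3 higher and 1 lower. Of all 17104 genes, raw totals called 5369 higher and 703 lower, RLE 2503 and 2130, and upper-quartile scaling 2663 and 1902. Cebpd, which encodes C/EBP delta, rose by 1.12 ± 0.22 (edgeR adjusted p = 0.000494) and Nfkbia by 0.48 ± 0.17, whereas Stat3 had an estimate of -0.03 and Hnf4a of -0.29, neither called. Nfkb1 (0.24) and Esr1 (-0.54) were called at edgeR adjusted p = 0.0496 and 0.0461, and those calls held in 8 and 13 of 26 fits with 1 library left out (0.19 to 0.29 and -0.61 to -0.45). Nfkbia held in 20 of 26 and was lost without wildtype CDAHFD replicate 1, 2 or 4 or chow replicate 2, 3 or 4 (0.41 to 0.55). Hnf4a is also one of the hepatocyte markers.

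Between genotypes on the diet edgeR and voom called no gene of these complement and companion lists. DESeq2 called 3, all lower in homozygous than in wildtype livers: Cd93 and C5ar1 among the receptors and Cebpd among the transcription factors. By edgeR, the lowest p among the receptors in homozygous against wildtype livers was that of Cd93, at -0.70 ± 0.15 (SE, edgeR adjusted p = 0.165), followed among the starting genes by C1qb at -0.39 ± 0.12 (adjusted p = 0.274) and among transcription factors by Cebpd at -0.75 ± 0.19 (adjusted p = 0.181). Among the remaining components the lowest p belonged to C8g (0.20) and among acute phase genes to Lcn2 (-1.01), with edgeR adjusted p = 0.481 and 0.347. In heterozygous against wildtype livers the lowest p of 5 lists belonged to C1qa (-0.27), Hc (0.31), C4bp (0.26), Cd93 (-0.36) and Itih4 (0.41), each at edgeR adjusted p = 0.569. C1qb averaged 62.2 ± 9.98 CPM in homozygous, 73.6 ± 9.73 CPM in heterozygous and 81.5 ± 14.3 CPM in wildtype livers on the diet, against 36.3 ± 8.36 CPM in wildtype chow livers (SD). Of 14 macrophage markers, 13 had estimates below 0 in homozygous against wildtype livers, with a median of -0.44. Of 9 hepatocyte markers, 8 had estimates above 0. Their median was 0.107, against 0.115 for the 9 complement genes and 0.01 over all genes. The part of these markers in the levels of the complement genes was not tested.

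**Figure D4:**
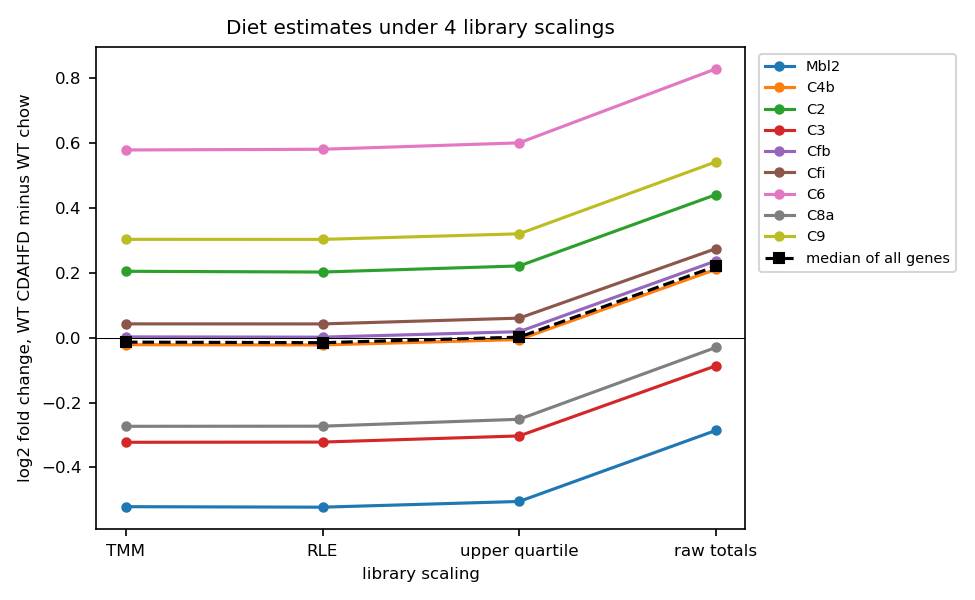
Log2 fold changes of wildtype CDAHFD minus wildtype chow livers (vertical axis) for the 9 genes under 4 library scalings (horizontal axis), with the median of all tested genes as black squares. Raw totals lift the median of all genes to 0.22 and the 9 genes with it, while the order of the genes stays the same from Mbl2 at the bottom to C6 at the top.

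Library scaling moved all 9 diet estimates together. TMM, RLE and upper-quartile scaling put C2 between 0.20 and 0.22 and Mbl2 between -0.52 and -0.50. On raw totals C2, C6 and C9 were called higher and Mbl2 lower, where 5369 of all 17104 genes were called higher and 703 lower. The median of all genes was then at 0.22. Relative to that median C2 was at 0.22, C6 at 0.61 and C9 at 0.32.

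**Figure D5:**
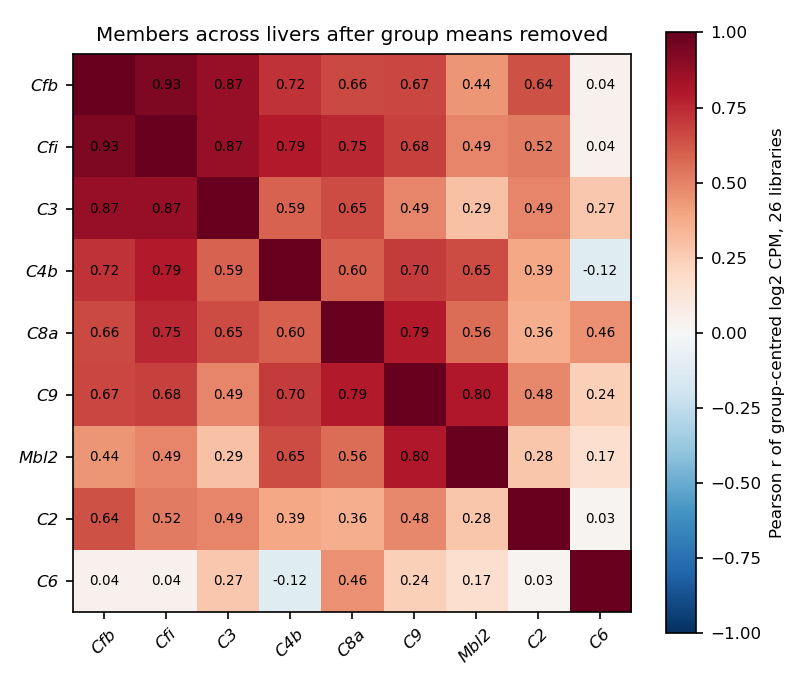
Pearson correlations between the 9 genes over 26 libraries, computed on log2 CPM after each group's mean was subtracted; red is positive and blue negative. Cfb and Cfi give the highest value, 0.93, and the C6 row is palest, with -0.12 for C4b.

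After group means were removed, the 9 genes largely varied together from liver to liver. Of 36 pairs, 35 had a correlation above 0, with a median of 0.54 over the same 26 libraries. Cfb, Cfi and C3 formed the closest trio, at 0.93 for Cfb with Cfi, 0.87 for C3 with Cfb and 0.87 for C3 with Cfi. C9 with Mbl2 reached 0.80 and C9 with C8a 0.79. C6 stood apart, with values from -0.12 for C4b to 0.46 for C8a. These are descriptions over libraries that share depth, scaling and tissue makeup, and no test was made.

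Single livers were often at the edge of their group for several of the 9 genes. Among chow livers, 1 was highest for 8 of 9 genes. Among wildtype livers on the diet, 1 was lowest for 7 of 9 genes and another was highest for 5. Among heterozygous livers, the one lowest for 6 genes, C4b, C8a, C9, Cfb, Cfi and Mbl2, was the highest for C6, at 32.8 CPM.

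Among 8570 genes of at least 10 CPM on average, the 2 whose centred levels were most like each complement gene differed in kind, and some were themselves complement genes. Plg, which encodes plasminogen, and C1ra, a C1r protease gene, both correlated with Cfi at 0.97. Cfb was nearest to Erap1 and F9, the gene of coagulation factor IX, at 0.92 each. C8a was nearest to its partner C8b, at 0.90, and then to Ugt2b1 (0.88), which also came second for C9 (0.83). Serping1 was among the nearest 2 for C4b (0.85), C9 (0.84) and Mbl2 (0.78), beside Cyp2d40 for C4b (0.86) and Dap for Mbl2 (0.77). C3 was nearest to Uba1 (0.95) and Crbn (0.94), and C2 to Rab43 (0.82) and Adhfe1 (0.81). C6 had the weakest neighbours, Itgav at 0.69 and Cxcl16 at 0.68, neither a plasma protein gene.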

How the data were processed

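RNA from mouse liver was made into libraries with a NEBNext Ultra II kit, per the labels' protocols. The authors deposited one table of estimated counts per Ensembl gene for 26 libraries; 54.4% of values above 0 were whole. Per the submitters' processing notes, tools included cutadapt 3.5 and Salmon 1.4.0 and the build was GRCm39 (mm39). Strand use and the summing of transcripts to genes are not given in the sources used here. Columns were matched to samples by library number, with 0 columns unused. Totals were 19.73 M to 29.91 M.

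After rounding, the estimated counts went into edgeR 4.0.16 (R 4.3.3; TMM, filterByExpr by group, robust quasi-likelihood F tests, Benjamini-Hochberg adjustment over all 17104 genes tested, called under 0.05). All 26 libraries in 4 groups entered one fit, with a biological coefficient of variation of 21.5%. The trend used the 21 CDAHFD libraries. Standard errors are the estimate divided by the square root of F. DESeq2 1.42.0 and voom in limma 3.58.1 were alternatives, beside other scalings, no filter, the compared groups only, the library number series, a replicate block and leaving out each library. The procedure was tested on simulated data. Libraries of one group were no duplicates: their chi-square per degree of freedom lay between 16.9 and 129.4 over 74 pairs.

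Symbols came from GENCODE M21 (GRCm38), another build than the table's, and matched 51475 IDs (92.5%). It gave names and transcript lengths. Mtarc1 carries its older symbol Marc1 there. Promoter windows are RefSeq's on GRCm38.p6.

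The 9 genes, the pathway and marker lists and the tests were chosen with earlier results of these data known. All 9 genes are named in every comparison. From each pathway list up to 4 called genes of lowest p are named, or the 1 of lowest p where none was called, and a gene so named may be followed elsewhere. C4a, C8b and Mbl1 are always named. Other named genes (on the diet: Hc, C7, Cfd, the C1r and C1s genes, Masp1, Masp2, Cpb2, Serping1, Cd46, Nfkb1, Stat3, Hnf4a) were chosen after their values were seen. Likeness names the 2 genes of highest Pearson correlation. Some genes that the rule names are not reported here.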

Additional observations from a re-analysis of the deposited data

Results flagged for a closer look

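C8a in wildtype livers on the diet had 1 sample far from the others. Sample 3 stood at 293.6 CPM, whereas the nearest of the other 5 was at 235.2 CPM, and the gap took 0.765 of the group's range, against Dixon's critical value of 0.625 for 6 samples. The same liver was also the highest of its group for C3, C6, C9 and Cfb. It was the 1 of 40 groups of samples tested in this way that stood out, where chance gives about 1 in 20.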

How the results depend on the processing

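Mbl2 kept its diet call in each of the 37 alternatives. The count of 9 genes called for the diet went to 4 on raw library totals and 2 with the replicate block, and lay between 1 and 2 with each library left out. For homozygous against chow it was 5 on raw totals, 3 with DESeq2, 3 with only the compared groups and 3 with the block, and 1 to 3 with a library left out. For heterozygous against chow it was 7 on raw totals, 2 in the libraries above 10000 alone and 2 to 5 with a library left out. Of all 17104 genes, raw totals called 6072, 5650 and 7042 in these 3 comparisons, against 4630, 3953 and 6361 with TMM. The block called 4464 for the diet and 3119 for homozygous against chow. In the latter, DESeq2 called 4363 of 17103 genes and the compared groups only 3859 of 16090. The libraries above 10000 alone called 4291 of 17132 for heterozygous against chow. The labels do not pair the libraries by sample number. The 34 same-numbered pairs correlated between -0.37 and 0.32 (median 0.07), against a median of 0 over 217 pairs of other numbers. Of 26 libraries, 8 were closest to their own number, which was not tested against chance. The block values are given once, here. The genotype counts stayed at 0 in all alternatives run.

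Several estimates near 0 changed sign, and the cause was not tested. On raw totals C4b was 0.21 (diet), C6 -0.022 (homozygous against wildtype), C3 0.0165 and C8a 0.11 (homozygous against chow) and C8a 0.18 (heterozygous against chow). Diet estimates of Cfb were -0.0045 with voom, -0.0049 with the compared groups only and -0.0077 with the number series as a term. Without the filter C4b was 0.0086 (diet) and C8a 0.0169 (heterozygous against chow), which voom put at 0.0362. In the libraries above 10000 alone, heterozygous against wildtype gave C4b -0.046 and C9 -0.0031, homozygous against heterozygous gave C4b 0.10, C8a 0.0084, C9 0.12 and Cfi 0.0082, and chow comparisons gave C4b -0.0382 (homozygous) and -0.14 (heterozygous). The block gave C6 0.0099 (homozygous against heterozygous) and C8a 0.0259 and 0.0656 (homozygous and heterozygous against chow). With each library left out, sign changes fell within -0.0656 to 0.024 (C4b), -0.0449 to 0.0812 (Cfb) and -0.0247 to 0.19 (Cfi) for the diet. They fell within -0.0668 to 0.28 (C6, homozygous against wildtype), -0.0232 to 0.35 (C6, heterozygous against wildtype), -0.17 to 0.0501 (C6) and -0.16 to 0.0142 (C9, homozygous against heterozygous). Against chow they fell within -0.30 to 0.0252 (C3) and -0.19 to 0.12 (C8a) for homozygous and -0.12 to 0.19 (C8a) for heterozygous livers.

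Depth was high for these genes, and the spread between livers sets the width of the intervals. With raw totals the split of all diet calls was 5369 higher and 703 lower, against 2537 and 2093 with TMM, so directions are relative to the scaling. No chow knockout livers were analysed here.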

Other observations

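Markers of stellate cells and fibroblasts, the matrix-making cells of the liver, moved more than the 9 complement genes in the same libraries. On the diet, edgeR's quasi-likelihood test called 8 of 12 higher in wildtype livers and none lower, against 14.8% and 12.2% of all genes. Their median log2 fold change was 1.06. In homozygous against wildtype livers on the diet, all 12 had estimates below 0, with a median of -0.50. There edgeR called none, although 9 had an unadjusted p under 0.05, against 9.97% of all genes. DESeq2 called 4 of them lower, Col3a1, Col1a2, Tagln and Acta2, where it called 0.465% of the genes it adjusted, and voom called none. Their summed level ran from 399.3 to 570.5 CPM in homozygous livers (median 481) and from 490.3 to 676.7 CPM in heterozygous livers (median 588.7). In wildtype livers on the diet it ran from 545.1 to 1094 CPM (median 595.1). Their part in the levels of the 9 genes was not tested.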
